A study of Rattus norvegicus with 6 samples.

Results

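Heat shock proteins and their J-domain partners were followed in transplanted rat hearts. The members were the genes of the deposited table whose name begins with Hsp, Dnaj or Bag plus a number, together with Hsf1 and Hsf2. The chaperones of the endoplasmic reticulum Hspa5, Hsp90b1, Dnajb11, Dnajc3 and Dnajc10 and the Hspg genes were left out. This gave 77 of the 22250 genes in the table, and 70 of the 77 had enough reads to be tested. The samples were left ventricular myocardium of Sprague-Dawley rats of WT genotype, taken on postoperative day 1 after heterotopic heart transplantation into young rats, with donor hearts kept for 6 hours at 4 °C in University of Wisconsin solution beforehand. Young donors were 10 weeks old (hearts 3, 13 and 15) and aged donors 1 year old (hearts 3, 4 and 7), and each library came from 1 heart. Heart numbers count within a group, so young heart 3 and aged heart 3 are different animals. Values of single hearts are given in this order throughout. Hearts before storage or transplantation were not analysed here, so a level that already differed with donor age and a level that changed after surgery cannot be told apart.

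HSP70 proteins bind unfolded stretches of other proteins, a cycle driven by ATP, in which J-domain proteins (the DnaJ family) deliver substrates and start ATP hydrolysis, and nucleotide exchange factors such as HSP110 and the Bag proteins release them. HSP90 acts later on kinases and receptors, while small heat shock proteins hold damaged proteins without using ATP and are abundant in heart muscle. Hsf1 is the factor that turns on the inducible members under proteotoxic stress, by binding to heat shock elements in their promoters. A separate set, led by Hspa9 and by the chaperonin pair Hspd1 and Hspe1, folds proteins imported into mitochondria.

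Both groups were compared with the quasi-likelihood test of edgeR on 13784 genes, and a gene counts here as higher if its fold change exceeded 1.5, or lower if it was under 0.67, in each case at an unadjusted p-value below 0.05. Verbs such as rose and fell refer to these limits, and levels are given in CPM, the count scaled to the size of the library with the trimmed mean of M values (TMM). The 6 libraries held between 21457509 and 24560869 reads on genes, and 2 of the hearts stood apart from their groups. Young heart 15 was nearer to the aged than to the young mean in 44 of the 70 members (62.9%) and in 9612 of all 13784 genes (69.7%). In aged heart 3 the 11 cardiomyocyte markers summed to 587 CPM, against 7204 and 7198 CPM in the other aged hearts and 92098, 101783 and 12468 CPM in the young hearts. None of these markers was at 0 in any heart, 5 of 11 fell, and Myl2, the ventricular myosin light chain, was at 0.887 CPM in aged heart 3. Neutrophil markers rose in 8 of 10 cases, with sums of 16.9 to 153 CPM in young and 394 to 1515 CPM in aged donor hearts, and macrophage markers in 5 of 10, with sums of 370 to 2352 and 3685 to 7093 CPM. Without aged heart 3 these counts were 9 of 11 cardiomyocyte markers lower, 3 of 10 neutrophil and 2 of 10 macrophage markers higher. Without young heart 15 they were 7 of 11, 10 of 10 and 10 of 10. Of the other markers tested, 2 of 6 for T cells rose, and 1 of 7 for endothelium, 3 of 7 for fibroblasts, 1 of 6 for smooth muscle and 1 of 5 for red blood cells fell. In whole tissue, fewer cells of a type and less RNA per cell cannot be told apart.

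Of the 70 members tested, 5 were higher and 9 lower in aged donor hearts, with the inducible HSP70 gene Hspa1b and the HSP110 gene Hsph1 among the higher and the mitochondrial J-domain genes Dnajc15 and Dnajc19 among the lower. The 5 higher members were 7.14% of those tested, against 13.2% of all genes, and the 9 lower members were 12.9%, against 19% of all genes. Both shares were below those of all genes, so passing these limits was not particular to the members. The median log2 fold change was -0.12 over the members and 0.016 over all genes, and the quartiles were -0.78 and 0.47 over the members, against -0.64 and 0.54 over all genes. By edgeR, 0 members had an adjusted p-value under 0.05 (0% of all genes), and 14 members had an unadjusted one under it. Hspa1b, Hspa12a and Dnajc18 shared the lowest adjusted value of the members, 0.0916. DESeq2 gave an adjusted p-value under 0.05 for 8 of 73 members (23.3% of all genes), 2 of them higher, and limma-voom with quality weights for 41 of 70 (61.1% of all genes), 20 of them higher. The groups did not overlap in CPM for 10 members that were higher and 15 that were lower, 14.3% and 21.4% of those tested, against 21% and 20.6% of all genes.

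**Figure D1:**
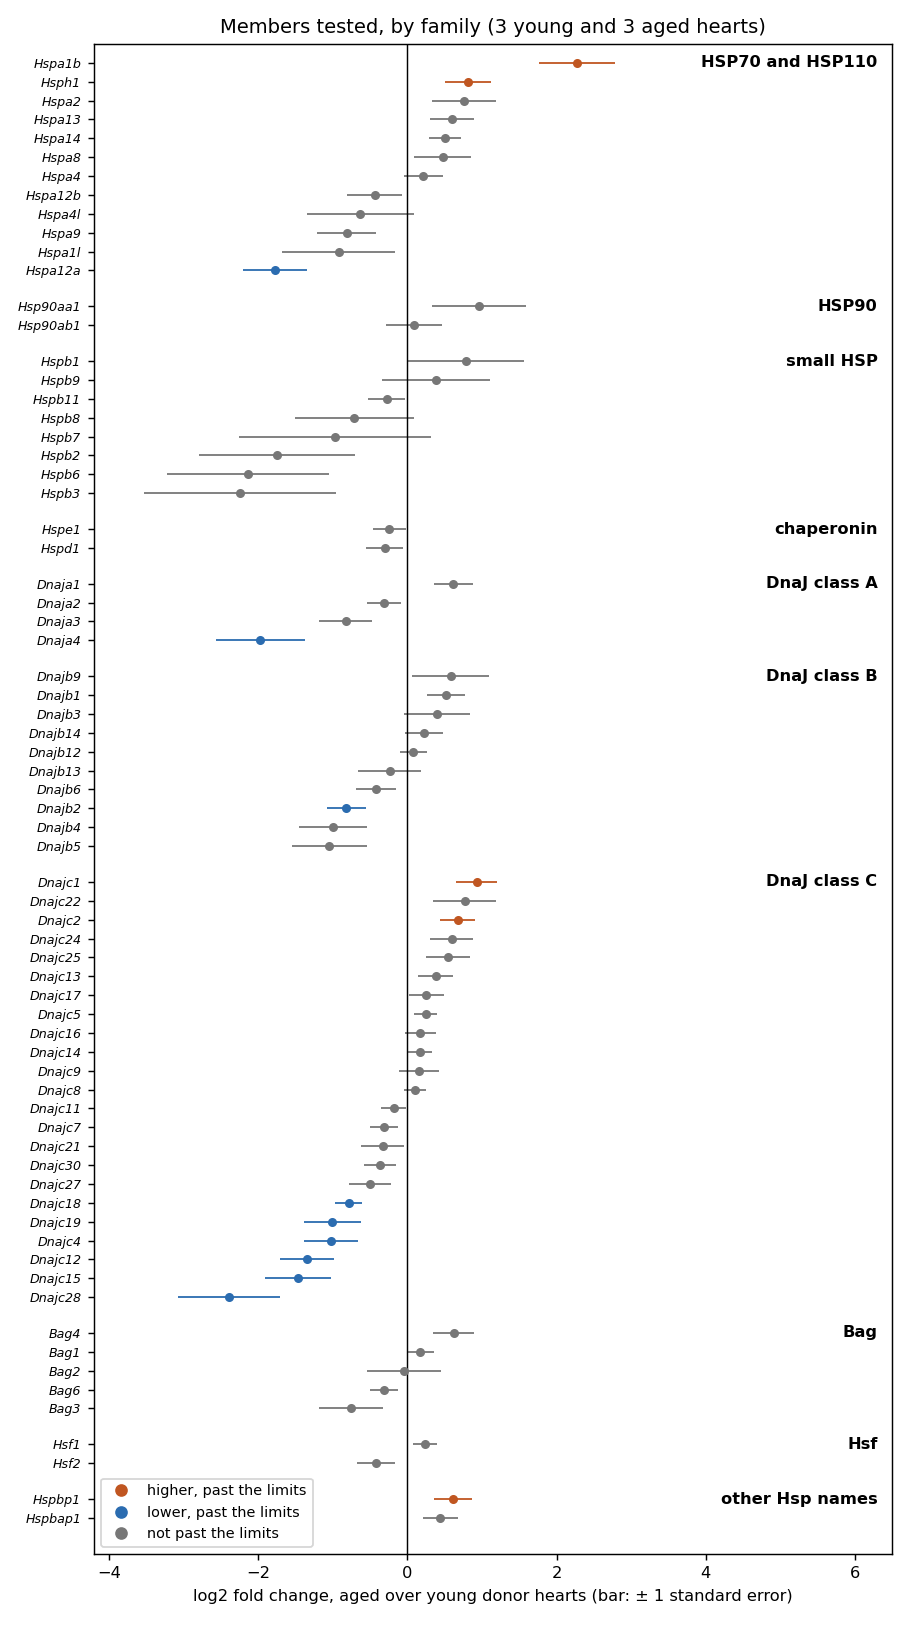
Log2 fold change of aged over young donor hearts for each of the 70 members tested, grouped by family, with 3 hearts in each group. Points are edgeR estimates and bars ± 1 standard error. Hspa1b lies farthest to the right at 2.27 and Dnajc28 farthest to the left at -2.39, and the bars of the muscle small heat shock proteins are the widest.

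**Figure D2:**
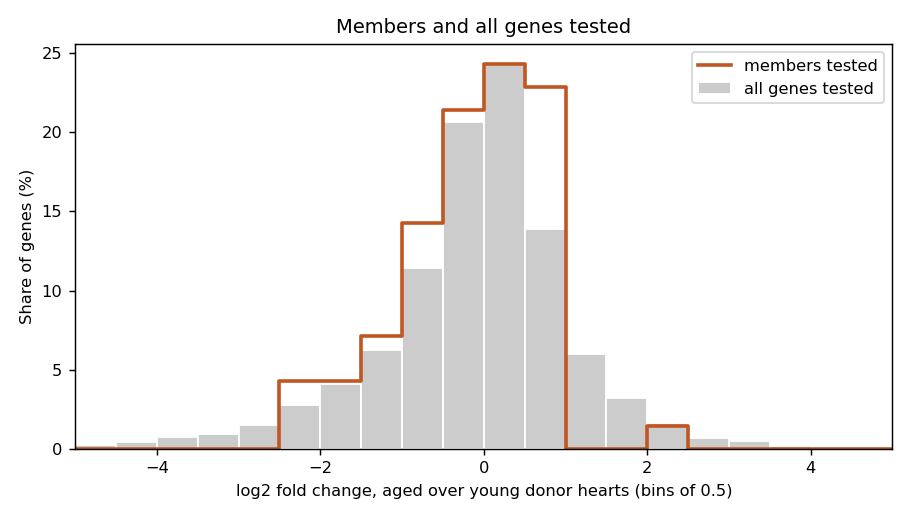
Share of genes in each bin of 0.5 log2 units of the fold change of aged over young donor hearts, for the 70 members (line) and all 13784 genes tested (bars). The x axis is the log2 fold change and the y axis the share in percent. The members are centred near 0, with a median of -0.12, and reach less far out on the higher side than all genes.

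Without young heart 15, 18 members were higher (26.9% of all genes) and 13 lower (24.2%). In that fit 25 members had an adjusted p-value under 0.05 by edgeR, 14 of them higher. The share of all genes under that adjusted limit is not given for this fit, so the 25 cannot be set against it. Without aged heart 3, 3 members were higher (7.47% of all genes) and 10 lower (14.7%). With library totals in place of TMM scaling, 12 were higher (22.8% of all genes) and 5 lower (10.5%), and the median of all genes moved to 0.46 and that of the members to 0.30.

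Inducible HSP70 was at a low level, and rose. Hspa1b, the stress-inducible cytosolic HSP70 (ENSRNOG00000050647, chr20:4877324-4879779, minus strand, Rnor_6.0), was counted with 22, 8 and 36 reads in the young and 137, 105 and 204 reads in the aged donor hearts. In CPM these were 1.33, 0.509 and 1.49 against 4.50, 3.98 and 7.82, and every aged heart was above every young heart. Mean levels were 1.11 ± 0.526 CPM (SD, n = 3) and 5.43 ± 2.08 CPM (SD, n = 3), a log2 fold change of 2.27 ± 0.51 (SE), the largest of the members tested. The adjusted p-value by edgeR was 0.0916 and the two-sided exact permutation test gave p = 0.1, the smallest that 3 against 3 hearts allow. Hspa1b was past the limits in all 12 alternatives run, at 1.93 to 2.71.

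Names of the inducible HSP70 genes were uncertain. Hspa1a was not in the table by that name, a near-identical gene described as heat shock 70 kDa protein 1A (LOC108348108) had 1 to 5 reads, and the sum of both genes gave a log2 fold change of 2.22. RefSeq on the GRCr8 assembly calls the gene with the deposited Hspa1b entry's gene ID Hspa1a. The deposited coordinates also place Hspa1b within the spans of 3 histocompatibility genes on the same strand. The histocompatibility gene RT1-CE4 had 178 to 503 reads in the young and 577 to 1246 in the aged donor hearts, RT1-CE7 had 115 to 263 and 580 to 1513, and RT1-CE1 had 0 to 5 over all hearts. Whether reads were shared between them was not tested.

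Hsph1, the inducible HSP110 that exchanges nucleotide on HSP70 (ENSRNOG00000000902), was at 72.4, 62.8 and 129 CPM in the young and 140, 162 and 162 CPM in the aged donor hearts. All aged hearts were higher, with young heart 15 close below them. The group means were 87.9 ± 35.5 and 154 ± 12.8 CPM (SD, n = 3 each), and Hsph1 rose by 0.81 ± 0.31 (SE) on the log2 scale (adjusted p = 0.124 by edgeR). It did not pass without young heart 3 or 13, or without any 1 of the aged hearts, and the estimate was 1.23 without young heart 15.

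Hspa8, the constitutive cytosolic HSP70 and one of the most abundant members, was at 882, 896 and 1611 CPM in the young and 1447, 1856 and 1403 CPM in the aged donor hearts. Young heart 15 lay within the aged range. The log2 fold change was 0.47 ± 0.38 (SE; adjusted p = 0.391 by edgeR) and became 0.86, past the limits, without that heart. A gene similar to Hspa8 (LOC680121), which could share its reads, had 1339 to 5300 reads and a log2 fold change of 0.52, and the 2 summed gave 0.48.

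The HSP90 genes were not past the limits. Hsp90ab1, the constitutive cytosolic HSP90, was at 1513, 1539 and 2335 CPM in the young and 1628, 2244 and 1864 CPM in the aged donor hearts, and the groups overlapped (log2 fold change 0.091 ± 0.37, SE). Its inducible relative Hsp90aa1 was counted far lower, at 2.66, 2.80 and 11.2 CPM in the young and 9.75, 8.11 and 14.8 CPM in the aged donor hearts. Young heart 15 was above 2 of the aged hearts, and the log2 fold change of 0.96 ± 0.63 (SE; adjusted p = 0.293 by edgeR) became 2.03, past the limits, without that heart. Reads of Hsp90aa1 could have been split with a near-identical gene (LOC103692716, 0 to 13 reads), and the sum gave 0.99.

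**Figure D3:**
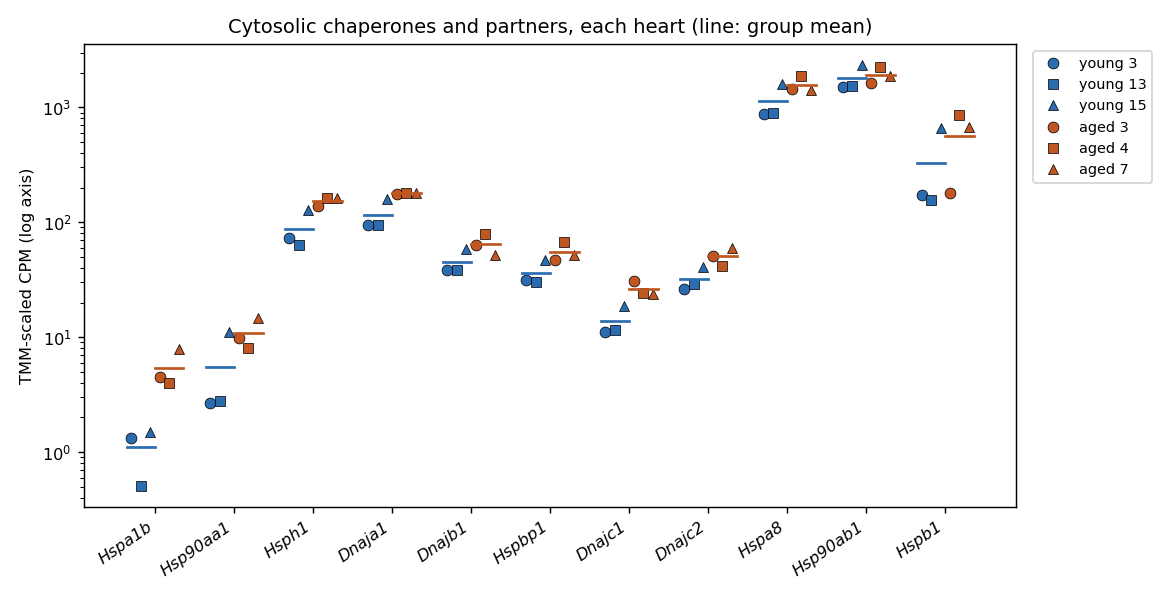
TMM-scaled CPM of cytosolic chaperones and partners in each of the 6 hearts on a log axis, with short lines at the group means. Hspa1b separates the groups, at 0.509 to 1.49 CPM in young and 3.98 to 7.82 CPM in aged donor hearts, while young heart 15 (blue triangle) lies among or just below the aged hearts for Hsph1, Hspa8 and Hspb1.

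Across the HSP70 and HSP110 family, 2 of the 12 members tested rose (16.7%, against 13.2% of all genes). A further 1 fell (8.33%, against 19% of all genes) and 9 did not pass, with a family median log2 fold change of 0.34. The one that fell was Hspa12a, an atypical HSP70 with a divergent ATPase domain, at 32.2, 34.3 and 11.4 CPM in the young and 8.21, 7.36 and 7.17 CPM in the aged donor hearts. The aged hearts were close together and all below young heart 15, and the log2 fold change was -1.77 ± 0.43 (SE; adjusted p = 0.0916 by edgeR), past the limits in all 13 alternatives run. By reads per kilobase of gene, Hspa8 made up 54.3%, 52.0% and 73.1% of the family in the young and 73.4%, 74.98% and 67.6% in the aged donor hearts. The mitochondrial member Hspa9 made up 26.7%, 29.1% and 10.2% against 7.87%, 9.23% and 13.4%. Both shares in young heart 15 were within or beside the aged range.

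A list of heat-inducible members, 12 of 13 of them in the table, had 2 that rose (Hspa1b and Hsph1, 16.7%, against 13.2% of all genes), 0 that fell and 10 that did not pass, with a median log2 fold change of 0.49. The groups did not overlap for 3 that were higher (25%, against 21% of all genes) and 2 that were lower (16.7%, against 20.6%). The 2 lower were Bag3 and Dnajb4, with log2 fold changes of -0.76 and -0.997. Without young heart 15, 7 of the 12 were higher (26.9% of all genes), and the median was 0.82. Without aged heart 3, 1 was higher (7.47% of all genes), and the median was 0.53. Leaving out any 1 of the other 4 hearts also left 1. The neutrophil and macrophage marker sums given above were also higher in every aged than in every young heart, and their part in these rises was not tested.

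Promoter sequences are shown for some members of this list, because it holds genes with different responses. Those shown carry a heat shock element, the run of inverted repeats that Hsf1 trimers bind, or 2 of its units. The search was for 3 alternating units, GAANNTTC followed by NNGAA or TTCNNGAA followed by NNTTC, and for the first 2 units alone, on both strands of RefSeq promoters on GRCr8 over the 250 bases before the start site. Promoters were matched for 61 of the 77 members, Bag5 and Bag5l1 with the same one, which leaves 60 promoters. The 3 units were found in 4 of the 60 (6.67%), against 222 of 33469 RefSeq promoters (0.663%). These 4 were Hspa8, Hspd1, Hspe1 and Hsph1, of which Hspd1 and Hspe1 hold the same bases and are not separate finds. The 2 units, which the longer element contains, were found in 16 (26.7%) against 4534 (13.5%). For the members 1 promoter per gene was taken, and the RefSeq promoters were not cut in this way. Capitals mark the units, each sequence is read 5′ to 3′ on the gene's strand, and positions are those of GRCr8, a different build from that of the counts. Hsph1 is shown at chr12:10427288-10427367 (plus strand), Hspa8 at chr8:50080284-50080513 (plus), Hspe1 at chr9:64084227-64084326 (plus) and Hspb1 at chr12:26432302-26432551 (minus).
Hsph1: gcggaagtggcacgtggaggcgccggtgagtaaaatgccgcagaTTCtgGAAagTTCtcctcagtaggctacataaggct
Hspa8: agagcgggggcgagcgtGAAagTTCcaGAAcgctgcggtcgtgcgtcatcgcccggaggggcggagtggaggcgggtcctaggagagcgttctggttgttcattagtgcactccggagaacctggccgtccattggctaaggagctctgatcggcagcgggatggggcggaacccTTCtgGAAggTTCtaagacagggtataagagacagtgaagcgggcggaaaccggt
Hspe1: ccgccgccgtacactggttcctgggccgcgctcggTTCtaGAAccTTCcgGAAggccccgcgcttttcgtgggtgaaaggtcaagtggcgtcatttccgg
Hspb1: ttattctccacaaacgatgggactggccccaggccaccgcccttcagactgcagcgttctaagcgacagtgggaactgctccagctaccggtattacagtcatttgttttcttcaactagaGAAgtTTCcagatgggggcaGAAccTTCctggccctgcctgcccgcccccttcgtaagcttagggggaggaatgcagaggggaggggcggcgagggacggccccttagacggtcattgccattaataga

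Hsph1 has 1 element of 3 units, ending 24 bases before its start site, and Hspa8 has 2. In Hspe1 the units overlap to a run of 4, and the same run lies in the window of Hspd1, which is read in the opposite direction. Hspb1 has 2 separate pairs of units and no run of 3. Dnaja1, Dnajb1 and Bag3 of the same list also have 2 units and no run of 3, and are not shown. They did not pass, with log2 fold changes of 0.62, 0.51 and -0.76. No promoter was matched for Hsp90aa1 and Dnajb4, which were therefore not searched. Of the 4 genes shown and Hspd1, Hsph1 rose, while Hspa8, Hspb1, Hspd1 and Hspe1 did not pass, with log2 fold changes of 0.47, 0.78, -0.31 and -0.24. For Hspa1b, the member with the largest rise, the window matched by gene ID is the one RefSeq calls Hspa1a, on the plus strand of GRCr8. The counted entry lies on the minus strand of Rnor_6.0, and whether both are the same copy was not tested. This window had neither form, which says only that these letters are not there. A match of this kind is a description of the sequence and not a measured site.

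The J-domain genes were 37 of the tested members, and 2 rose (5.41%, against 13.2% of all genes), 8 fell (21.6%, against 19%) and 27 did not pass, with a median log2 fold change of -0.18. Without young heart 15, 7 were higher and 10 lower (26.9% and 24.2% of all genes). Without young heart 3 or 13, 1 was higher and 5 were lower, and without aged heart 3 (7.47% of all genes) or aged heart 7 also 1 was higher. Shares of all genes are not given for the fits without young heart 3 or 13 or aged heart 7. Both that rose were class C genes, a group that shares the J-domain and little else. Dnajc1, an endoplasmic reticulum membrane protein, was at 11.1, 11.6 and 18.6 CPM in the young and 30.7, 24.1 and 23.8 CPM in the aged donor hearts. Every aged heart was higher, the log2 fold change was 0.93 ± 0.27 (SE; adjusted p = 0.0931 by edgeR), and the call held in all 13 alternatives run. Dnajc2, which works on the ribosome beside nascent chains, was at 26.4, 28.8 and 40.5 CPM in the young and 50.8, 42.0 and 59.9 CPM in the aged donor hearts. It rose by 0.67 ± 0.24 (SE) on the log2 scale (adjusted p = 0.113 by edgeR), with young heart 15 just below the lowest aged heart, and did not pass when young heart 3 or 13 or aged heart 3 or 7 was left out.

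The 2 J-domain partners best known for working with inducible HSP70 did not pass. Dnajb1, the HSP40 that helps HSP70 pull protein aggregates apart, was at 38.7, 38.4 and 58.98 CPM in the young and 63.9, 78.9 and 51.6 CPM in the aged donor hearts (log2 fold change 0.51 ± 0.26, SE; adjusted p = 0.197 by edgeR). Dnaja1, a class A partner of Hspa8, was at 94.1, 94.9 and 161 CPM in the young and 177, 180 and 180 CPM in the aged donor hearts. The aged values of Dnaja1 were nearly equal and all higher, with a log2 fold change of 0.62 ± 0.26 (SE; adjusted p = 0.153 by edgeR). Both were past the limits without young heart 15, at 0.78 and 0.96.

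Among the J-domain genes that fell, the largest difference was in Dnajc28, at 20.9, 27.2 and 5.82 CPM in the young and 1.51, 3.87 and 4.91 CPM in the aged donor hearts. Young heart 15 was nearer to the aged hearts than to the other young hearts, yet above them all, and the log2 fold change was -2.39 ± 0.68 (SE; adjusted p = 0.0927 by edgeR). Dnaja4, a class A partner of HSP70 known from heart and skeletal muscle, was at 233, 224 and 61.9 CPM in the young and 23.2, 45.2 and 64.3 CPM in the aged donor hearts. Here the groups overlapped, since young heart 15 was below aged heart 7, and the log2 fold change was -1.97 ± 0.60 (SE; adjusted p = 0.0965 by edgeR). Dnajc12, a co-chaperone of the aromatic amino acid hydroxylases, was at 29.3, 31.5 and 15.8 CPM in the young and 6.73, 10.7 and 12.7 CPM in the aged donor hearts. All aged hearts were lower, with a log2 fold change of -1.35 ± 0.37 (SE; adjusted p = 0.0919 by edgeR). Dnajc28 and Dnajc12 passed in all 13 alternatives run, and Dnaja4 in all but the one without aged heart 4.

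Smaller falls were seen in Dnajc4, Dnajb2 and Dnajc18. Dnajc4 was at 25.4, 29.4 and 12.1 CPM in the young and 8.93, 12.7 and 11.3 CPM in the aged donor hearts, where young heart 15 lay inside the aged range (log2 fold change -1.02 ± 0.36, SE). Dnajb2, a J-domain protein that also binds ubiquitin, was at 129, 130 and 109 CPM in the young and 46.2, 83.7 and 78.9 CPM in the aged donor hearts. For Dnajb2 the young hearts were close together and all above the aged hearts (log2 fold change -0.82 ± 0.27, SE). The endoplasmic reticulum membrane protein Dnajc18 was at 29.9, 32.0 and 26.7 CPM in the young and 15.0, 18.2 and 18.1 CPM in the aged donor hearts. All young hearts were again above all aged hearts, and the log2 fold change of -0.79 ± 0.18 (SE; adjusted p = 0.0916 by edgeR) had the smallest standard error of the members that fell. With library totals as the scaling Dnajc18, Dnajb2 and Dnajc4 did not pass, with log2 fold changes of -0.33, -0.36 and -0.49. Dnajc4 also did not pass without any 1 of the hearts other than young heart 15, nor Dnajb2 without young heart 3 or 13.

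Of the members that free HSP70 from its substrate, Hspbp1 was the one that passed, apart from Hsph1. Hspbp1, which opens the nucleotide pocket of HSP70, was at 31.2, 30.3 and 47.3 CPM in the young and 46.7, 67.9 and 51.9 CPM in the aged donor hearts. The groups overlapped by a narrow margin at young heart 15 and aged heart 3. It rose by 0.61 ± 0.25 (SE) on the log2 scale (adjusted p = 0.144 by edgeR), and did not pass with DESeq2, with DESeq2's size factors, or without young heart 3 or 13 or aged heart 4 or 7.

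None of the 5 Bag genes tested passed, and their log2 fold changes ran from -0.76 to 0.62. Bag3, which joins HSP70 to Hspb8 in the disposal of damaged sarcomere proteins, was at 319, 326 and 274 CPM in the young and 80.2, 205 and 259 CPM in the aged donor hearts. Every aged heart was below every young heart, but aged heart 3 was far below the others, and the log2 fold change was -0.76 ± 0.43 (SE; adjusted p = 0.239 by edgeR), or -0.39 without that heart. Bag5 (1 to 9 reads) and its near copy Bag5l1 (0 to 13 reads) were not tested.

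Small heat shock proteins held the 6 largest standard errors of the members, and aged heart 3 held the lowest value of 6 of the 8. None of the 8 tested passed, with a median log2 fold change of -0.84. The groups did not overlap for 4 of the 8 (50%, against 20.6% of all genes), all lower in aged donor hearts. These were Hspb2, Hspb3, Hspb6 and Hspb11. Hspb11 was counted in the family by its name, at 3.55 to 5.08 CPM over the hearts and a log2 fold change of -0.28. Hspb6, the cardiac HSP20, was at 1353, 1493 and 562 CPM in the young and 14.6, 357 and 403 CPM in the aged donor hearts. All aged hearts were lower, and aged heart 3 was lower than the next by a wide gap, giving a log2 fold change of -2.14 ± 1.08 (SE; adjusted p = 0.201 by edgeR). Without aged heart 3 the log2 fold change of Hspb6 was -1.57, past the limits.

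Hspb7, a small heat shock protein of heart and vessels that binds the actin cross-linker filamin C, had the highest mean level of the members per kilobase over the 6 hearts. It was at 1603, 1925 and 3230 CPM in the young and 19.2, 2139 and 1296 CPM in the aged donor hearts, so that aged heart 3 was the outlying value and the others overlapped (log2 fold change -0.97 ± 1.28, SE, and -0.39 without aged heart 3). Hspb8, the partner of Bag3, was at 478, 495 and 465 CPM in the young and 37.2, 472 and 371 CPM in the aged donor hearts. Again aged heart 3 was alone in being low, and the log2 fold change of -0.71 ± 0.80 (SE) became -0.18 without it. The muscle members Hspb2 and Hspb3, named after their values were seen, had non-overlapping groups and log2 fold changes of -1.75 and -2.24. With Hspb6 they made up the 3 of 8 small heat shock genes that were lower past the limits without aged heart 3. In that fit 14.7% of all genes were lower.

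Hspb1, or HSP27, went the other way. It was at 174, 157 and 657 CPM in the young and 178, 849 and 675 CPM in the aged donor hearts, with young heart 15 near the 2 high aged hearts and aged heart 3 near the 2 low young hearts. The log2 fold change was 0.78 ± 0.78 (SE; adjusted p = 0.481 by edgeR), and 1.81, past the limits, without young heart 15. By reads per kilobase, Hspb1 made up 7.69%, 6.23% and 23.2% of the summed Hspb genes in the young and 80.5%, 35.6% and 38.3% in the aged donor hearts. Hspb6 made up 40.1%, 39.7% and 13.3% against 4.42%, 10.0% and 15.3%. Within these genes the share of Hspb1 was therefore above the young range in every aged heart, also without aged heart 3. The shares of Hspb6 overlapped at young heart 15. Cryab, a small heat shock gene whose name is outside the rule, is not in these sums. It was at 1910, 2148 and 2632 CPM in the young and 32.5, 1794 and 1627 CPM in the aged donor hearts. Per kilobase its mean over the 6 hearts was 1355 CPM, above that of Hspb7 at 849 CPM, so each share would be lower with it.

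**Figure D4:**
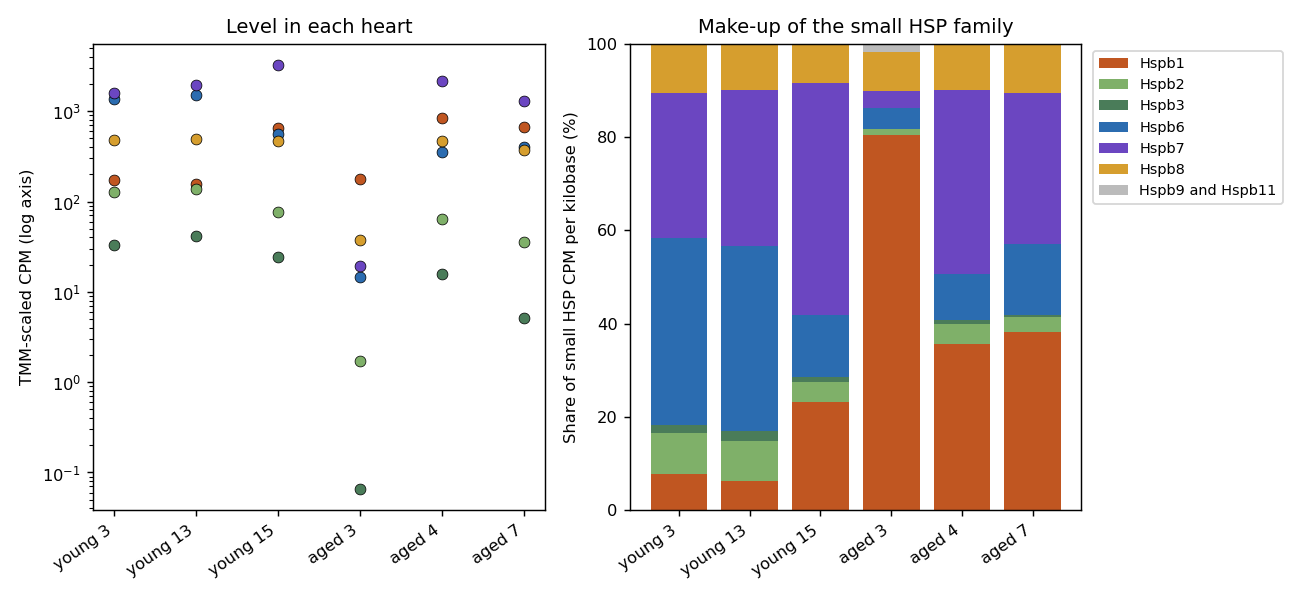
Left, TMM-scaled CPM of 6 small heat shock genes in each heart on a log axis, with 1 point per gene and heart. Right, the share of each gene in the summed CPM per kilobase of the Hspb genes, without Cryab, in percent. Hspb1 takes 6.23% to 23.2% in young and 35.6% to 80.5% in aged donor hearts, and in aged heart 3 the other 5 genes are at 37.2 CPM or lower.

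Cardiomyocyte marker sums were lowest in aged heart 3 and, among the young, in heart 15. Hspb2, Hspb3, Hspb6 and, by a small margin among the young, Hspb8 were also lowest within their groups in these hearts. In young heart 15 Hspb1, Hspb7, Hspb11 and Cryab were instead the highest of the young, at 657, 3230, 5.08 and 2632 CPM. For every 1000 reads on cardiomyocyte markers there were 14.7, 14.7 and 45.1 reads of Hspb6 in the young and 24.8, 49.6 and 55.9 in the aged donor hearts. Hspb1 had 1.89, 1.54 and 52.7 such reads against 303, 118 and 93.8, and Hspb8 had 5.19, 4.87 and 37.3 against 63.4, 65.5 and 51.5. Hspb7 had 17.4, 18.9 and 259 against 32.7, 297 and 180. On this scale Hspb1 and Hspb8 were higher in every aged than in every young heart, and the groups overlapped for Hspb2, Hspb3, Hspb6 and Hspb7. The marker sum in the divisor was itself lower in every aged than in every young heart, as were 9 of the 11 markers taken singly. The part of the cardiomyocyte markers in the lower small heat shock genes was not tested.

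All 8 mitochondrial members had negative log2 fold changes, from -1.46 to -0.18 with a median of -0.59, and 2 of them fell (25%, against 19% of all genes). Of all genes tested, 50.7% had a positive log2 fold change. Without young heart 15, 4 of the 8 were lower (24.2% of all genes), and 1 without any other single heart. With library totals as the scaling 1 was lower, and Hspd1 and Hspe1 turned positive, at 0.17 and 0.23. Dnajc15, a J-domain protein of the inner membrane that restrains complex I, was at 106, 116 and 40.8 CPM in the young and 21.3, 38.9 and 34.99 CPM in the aged donor hearts. Every aged heart was lower, though aged heart 4 was close to young heart 15, and the log2 fold change was -1.46 ± 0.44 (SE; adjusted p = 0.0957 by edgeR), past the limits in all 13 alternatives run. Dnajc19, the J-domain protein of the import motor, whose loss in people causes a dilated cardiomyopathy with ataxia, was at 59.6, 64.7 and 23.4 CPM in the young and 22.3, 26.7 and 24.7 CPM in the aged donor hearts. Young heart 15 lay among the aged hearts, and the log2 fold change of -1.004 ± 0.38 (SE; adjusted p = 0.127 by edgeR) did not pass with library totals or without any 1 of the hearts other than young heart 15. Dnajc19 overlaps Fxr1 on the opposite strand, whose counts ran from 2020 to 2285 in young and from 1471 to 1827 in aged donor hearts, and the use of strand in counting is not given in the sources used here.

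The mitochondrial HSP70 and the chaperonin pair did not pass. Hspa9, the mitochondrial HSP70, was at 635, 734 and 329 CPM in the young and 227, 334 and 405 CPM in the aged donor hearts, with young heart 15 inside the aged range (log2 fold change -0.81 ± 0.39, SE; adjusted p = 0.187 by edgeR). Without that heart it was -1.05, past the limits. Hspd1, the chaperonin HSP60, was at 507, 552 and 403 CPM in the young and 355, 429 and 399 CPM in the aged donor hearts (log2 fold change -0.31 ± 0.24, SE). Its lid Hspe1 was at 71.6, 71.9 and 56.5 CPM in the young and 44.9, 70.0 and 54.3 CPM in the aged donor hearts (log2 fold change -0.24 ± 0.22, SE). For this pair the difference between groups was near the spread between hearts. The sum of the mitochondrial members was 1646, 1839 and 1047 CPM in the young and 803, 1100 and 1097 CPM in the aged donor hearts, beside the cardiomyocyte marker sums given above, and the part of those markers was not tested.

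**Figure D5:**
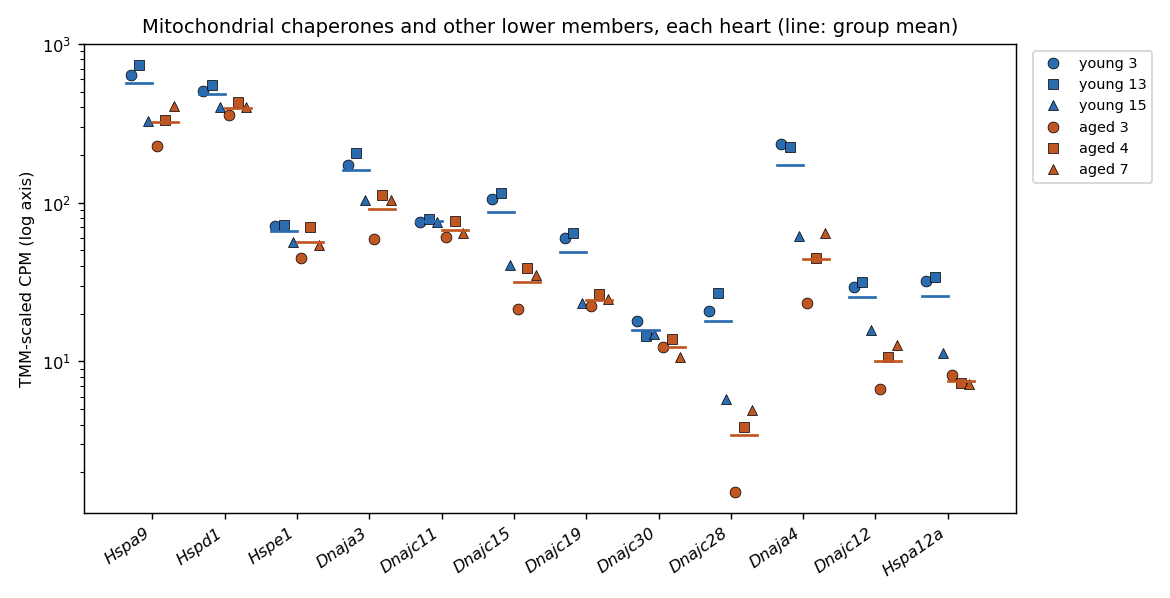
TMM-scaled CPM of 8 mitochondrial members and of Dnajc28, Dnaja4, Dnajc12 and Hspa12a in each heart on a log axis, with short lines at the group means. Young hearts 3 and 13 lie together at the top for Dnajc15 and Dnajc28, young heart 15 lies near or among the aged hearts, and aged heart 3 is the lowest for Dnajc28 at 1.51 CPM.

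The factors that control the heat shock response did not pass. Hsf1 was at 44.9, 47.8 and 49.8 CPM in the young and 49.7, 63.3 and 55.1 CPM in the aged donor hearts, with a log2 fold change of 0.24 ± 0.16 (SE; adjusted p = 0.311 by edgeR). Hsf2, a related factor, was at 33.3, 29.6 and 30.9 CPM in the young and 22.3, 16.8 and 31.2 CPM in the aged donor hearts, with a log2 fold change of -0.42 ± 0.25 (SE). Groups overlapped for both, and RNA levels of Hsf1 do not report its activity, which is set by trimer formation of the protein. With library totals Hsf1 was past the limits at 0.67 and Hsf2 turned to 0.032.

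Per kilobase of gene, and ordered by the mean over all 6 hearts, the highest levels among the members were those of Hspb7 at 1123 ± 430 CPM in young and 574 ± 532 CPM in aged donor hearts (SD, n = 3 each). Next were Hsp90ab1 at 675 ± 176 and 719 ± 117, Hspa8 at 583 ± 215 and 809 ± 129, Hspb6 at 867 ± 383 and 197 ± 162, and Hspb1 at 375 ± 323 and 646 ± 396 CPM per kilobase. The order was not the same in each group, since in aged donor hearts Hspa8, Hsp90ab1 and Hspb1 had higher means than Hspb7, and in young donor hearts Hspb6 came second. Neighbours in this order did not differ beyond their spread over the hearts. Dnajb8 and Dnajc5g had no read in any heart, and a count of 0 allows up to 3 reads. The other untested members were Dnajb7 (0 to 5 reads), Dnajc5b (0 to 1) and Dnajc6 (0 to 7), and 3 reads correspond to 0.122 to 0.14 CPM before TMM scaling. Such floors cover counting error alone.

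Partner genes outside the rule were counted from 4 lists. Of 18 co-chaperones of HSP90 and HSP70, 2 rose and 1 fell. Those that rose were Ptges3, the p23 co-chaperone, at 92.6, 89.7 and 191 CPM against 241, 196 and 240 CPM (log2 fold change 0.86 ± 0.35, SE), and Fkbp5, the glucocorticoid-induced immunophilin, at 96.7, 95.7 and 97.0 CPM against 138, 152 and 214 CPM (0.80 ± 0.22, SE). Fkbp5 was the more even of the pair, with young heart 15 level with the other young hearts. Cdc37l1, a relative of the kinase co-chaperone Cdc37, fell by 0.94 ± 0.30 (SE) on the log2 scale, from 122, 127 and 74.3 CPM to 40.9, 57.4 and 70.4 CPM. Without aged heart 3, Fkbp5 passed, and Ptges3 and Cdc37l1 did not, with log2 fold changes of 0.81 and -0.75.

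In the cytosolic chaperonin and its feeder prefoldin, 2 of the 14 genes rose, Cct6a by 0.86 and Pfdn4 by 0.81 on the log2 scale, and Pfdn1 fell by 0.78. Cct6a and Pfdn4 did not pass without aged heart 3, and Pfdn1 did. Of the mitochondrial partners, 2 of 9 fell and 0 rose. Clpx, the unfoldase of the matrix protease, was at 261, 262 and 65.4 CPM in the young and 34.3, 53.2 and 58.2 CPM in the aged donor hearts (log2 fold change -2.01 ± 0.55, SE). Grpel1, the nucleotide exchange factor of Hspa9, was at 126, 133 and 49.2 CPM in the young and 28.8, 52.5 and 50.2 CPM in the aged donor hearts (-1.23 ± 0.44, SE). For both, young heart 15 lay near the aged hearts, as it did for Dnajc15 and Dnajc28. When aged heart 3 was left out Clpx passed and Grpel1 did not, at -1.81 and -0.99. Among 7 other heat shock genes tested, 1 rose, the heme oxygenase Hmox1, at 16.9, 19.4 and 258 CPM in the young and 1341, 534 and 1173 CPM in the aged donor hearts (log2 fold change 3.37 ± 1.20, SE). It did not pass without aged heart 3, at 3.12, and without young heart 15 it was at 5.85. Hmox1 is also abundant in macrophages, whose markers were higher in aged donor hearts, and the part of those cells was not tested. Over the 4 lists, 5 of 48 genes rose (10.4%) and 4 fell (8.33%), below the shares of all genes, 13.2% and 19%.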

How the data were processed

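RNA-Seq of polyadenylated RNA was measured in 3 young and 3 aged donor hearts. The authors deposited raw read counts per gene and FPKM values. The deposited FPKM were used as a check alone. They equalled the count divided by gene length and library total, within 0.5 reads, for all 22250 genes in 5 hearts. In aged heart 3 the library total behind the FPKM was 340 reads above the sum of the deposited counts, and with it 1 gene, not a member or partner, still differed, its FPKM standing for 22.0 more reads than its count (4.39%). The origin of that entry was not tested, and the counts were used as deposited. The submitters' processing notes name HISAT2 2.0.5, StringTie 1.3.3b, featureCounts 1.5.0-p3, DESeq2 1.16.1, GATK 3.7 and the build Rnor_6.0, with no role or order. The whole table of counts was fitted with edgeR 4.0.16 (R 4.3.3; filterByExpr, TMM scaling, quasi-likelihood test, no covariates), and with limma 3.58.1 and DESeq2 1.42.0 as alternatives, with Benjamini-Hochberg adjustment over all genes tested. CPM are scaled by TMM. Standard errors were derived from each log2 fold change and its F statistic. The steps were tested on simulated data. With the dispersion estimated from these hearts, edgeR and limma-voom found a minority of the changes put in. DESeq2 found more of them, but also gave more false calls than the other tools. In these hearts limma-voom, with quality weights, gave an adjusted p-value under 0.05 for 61.1% of all genes, and edgeR for 0%. The simulation did not show that gap between edgeR and limma-voom, so it cannot tell how many limma-voom calls here were false. Depth was similar in all hearts, and the counting precision of a gene is set by its reads. Replicates differed by more than sampling noise (lowest chi-square per degree of freedom 9.81), so all 6 hearts were kept. That lowest value was for young hearts 3 and 13, against 471 and 503 for young heart 15 with each of them. Pairs of aged hearts gave 71.6 to 218. Separate animals are taken from the labels.

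The members and lists were chosen with earlier results of these data known. Named with values were members past the limits with a mean of at least 10 CPM in either group, up to 12 in each direction, the 5 with the highest CPM per kilobase, and fixed textbook members. Members or partners named beyond this were picked after their values were seen, except partners past the limits. Alternatives were other scalings, filters and limits, DESeq2, limma-voom, and leaving out hearts. Promoter sequences are from RefSeq on GRCr8. Protein sequences were not used here.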

Additional observations from a re-analysis of the deposited data

How the results depend on the processing

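No paired analysis was possible because the young and aged donor hearts share fewer than 2 heart numbers and the numbers count within a group. The number of members higher in aged donor hearts was 12 with library totals, 18 with limma-voom, 2 to 18 when 1 heart was left out in turn (18 without young heart 15, and 2 or 3 without any other), and 19 without young heart 15 and aged heart 3 together, a setting chosen after seeing the data. The number lower was 5, 17, 6 to 13 and 16 in the same settings. Of all genes, 13.2% were higher and 19% lower as reported, and 22.8% and 10.5% with library totals. Without young heart 15 these shares were 26.9% and 24.2%, and without aged heart 3 they were 7.47% and 14.7%. For the other settings shares of all genes past the limits are not given, so those counts cannot be set against them. The number of members with an adjusted p under 0.05 was 8 with DESeq2 (23.3% of all genes), 41 with limma-voom (61.1%), and 0 to 25 with 1 heart left out. Shares of all genes under that limit are not given for the fits with 1 heart left out. The median log2 fold change of the members turned positive with library totals (0.30) and without aged heart 3 (0.017), and lay between -0.23 and 0.017 with 1 heart left out. Members without overlap numbered 25 to 58 with 1 heart left out (39 without aged heart 4, 58 without young heart 15), where fewer hearts make an overlap less likely by construction. The partner genes that were higher numbered 10 with library totals, 14 with limma-voom and 1 to 16 with 1 heart left out, and those lower 1, 12 and 2 to 9. Hspa1b summed with its near-identical gene kept its call in every setting run, at 1.88 to 2.53 with 1 heart left out. The members named by the rule changed direction in 6 of their alternative values, of which each member had 12 or 13. Hsp90ab1 did so without young heart 3 (-0.020), young heart 13 (-0.0089) or aged heart 4 (-0.035). Its range was -0.035 to 0.36 when 1 heart was left out. With library totals Hspd1 (0.17), Hspe1 (0.23) and Hsf2 (0.032) changed direction. A further 32 values lost and 27 gained their call, and the rest kept direction and side. The causes were not tested.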
